A study of Mus musculus with 8 samples.

Results

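The genes described here are those of antioxidant defence, glutathione metabolism and the NRF2 response. The list holds 37 such genes, and each was measured by every probe set whose platform annotation gave that gene as its only symbol. Of the 37 genes, 31 had such a probe set, with 61 probe sets among the 45101 of the array. Of these, 53 probe sets, standing for 29 genes, were bright enough to be tested, among 27022 tested probe sets standing for 13256 genes in all. Gsta1, Prdx1, Prdx5, Prdx6, Ftl1 and G6pdx had no probe set with exactly 1 symbol and were not analysed here. Gsta3 and Gpx2 had probe sets too dim to be tested.

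NRF2, the product of Nfe2l2, is a transcription factor that KEAP1 holds in the cytoplasm and presents for degradation. Oxidants and electrophiles modify KEAP1, so that NRF2 builds up, enters the nucleus with small MAF proteins and binds antioxidant response elements in front of its target genes. Those targets make glutathione, reduce thioredoxin and peroxiredoxins, conjugate reactive compounds, break down heme and store iron. Fibroblast-like cells in culture keep many of these genes on, and growth at the oxygen level of air can expose such cells to peroxides. Peroxides were not measured here.

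The cells were preadipocytes, the stromal cells from which fat cells form, from the subcutaneous fat of day 2 newborn mice. All 8 samples carried Dicer lox/lox alleles on the C57BL/6 background, and adenovirus was added to each at a MOI of 750, along with polybrene (4 µg/mL). In 4 Dicer knockout samples the virus, Ad5CMVCre-eGFP, carried Cre recombinase, which excises floxed DNA, so as to remove the enzyme that makes mature microRNAs. In 4 control samples it was Ad5CMVeGFP, with GFP alone. RNA was taken 4 days later and put on Affymetrix arrays, 1 per sample. No sample received Cre without floxed Dicer, so that effects of Cre or its virus and of Dicer loss cannot be told apart. Samples of a group are called biological replicates 1 to 4 without saying whether they came from separate animals or cultures, so p-values reflect only how much these samples varied, which may be technical.

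The median signal of the 8 arrays was between 321.1 and 418.9, and the number of arrays limits the precision. The Dicer1 probe sets had log2 differences of -0.15 (SE 0.20) and -0.26 (SE 0.27), knockout minus control, and neither was called. The sources used here do not place them inside or outside the excised DNA, so they do not check the deletion. Of 11 preadipocyte and stromal markers, 10 had a probe set and were tested. None of these was called in the unpaired fit, and 1 (Dlk1) was called in the paired fit. The brightest Dlk1 probe set read 15603.5 to 60140.3 in knockout samples and 26166.8 to 72944.1 in control samples. The summed signal of the 10 markers was 413121 to 485512 in knockout samples and 433379 to 524286 in control samples. Markers of other cell types were in part bright enough to be tested, and none of these was called in either fit. Of the mature fat cell markers, Fabp4 (1877.4 to 6206.2 in knockout and 2079.7 to 3941.2 in control samples) and Retn were tested, while Adipoq, Lep and Cidec were too dim. Of the macrophage and leukocyte markers, Cd68, Csf1r, Cd14, Adgre1 and Lyz2 were tested, and Ptprc, Itgam and Mrc1 were too dim. Of the endothelial markers, Kdr (838.8 to 1121.5 in knockout and 810.8 to 1257.4 in control samples), Tek and Emcn were tested, and Cdh5, Pecam1 and Vwf were too dim. The epithelial marker Epcam, the muscle markers Des, Acta1 and Myod1, and the neural markers Ncam1, S100b and Sox10 were tested as well. The epithelial markers Krt5, Krt14, Cdh1 and Krt15 and the muscle markers Myog and Myf5 were too dim. At these dim levels Myog read 50.2 to 197.2 in knockout and 19.9 to 45.1 in control samples, without overlap. Cdh1 leaned the other way, at 22.8 to 88.3 in knockout and 72.1 to 174 in control samples. The presence of cells of these other types was not tested. The 3 erythroid markers had a summed signal of 50.5 to 345.3 in knockout and 193 to 226.7 in control samples. In bulk RNA, fewer cells of a type and less RNA per cell cannot be told apart. Arrays 1 and 3 of both groups had an 18S rRNA signal (5′ probe set) of 5905.9 to 14007.2, and arrays 2 and 4 of both groups 30583.9 to 43029.9.

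The element that NRF2 binds was looked for in the promoters, since it is the sequence through which NRF2 acts. It was not used to choose the probe sets. The list does take in NRF2 response genes, so its share of genes with the element may not be independent of how it was made. The core TGACNNNGC was searched on both strands of RefSeq promoter windows of 300 bases (GRCm38.p6), running from 250 bases before to 50 after a gene's start. Windows were given for 31 of the 37 genes, and not for Hmox1, Gclc, Gsr, Gsta4, Sod3 and Prdx6. The core was found in 9 of these 31 genes (29%), against 3781 of 27025 genes in the whole table (14%), counting a gene if any of its windows held it. The genes were Gsta3, Nfe2l2, Srxn1, Gclm, Prdx1, Mgst1, Txnrd1, Sod1 and G6pdx. A match is a string of letters and not a measured binding site. The search did not reach beyond these windows, so a gene without a match, such as Nqo1, may hold the element elsewhere. In 8 of these genes the match lay before the start, and 7 of the 8 are shown with 10 bases on either side, in the direction in which the core reads, with the 9 bases of the core in capitals.
Txnrd1, chr10:82859104-82859132, minus strand: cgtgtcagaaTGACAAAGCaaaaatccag
Gclm, chr3:122245413-122245441, minus strand: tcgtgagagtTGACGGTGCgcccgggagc
Nfe2l2, chr2:75704885-75704913, minus strand: tcagcccaccTGACTCCGCcatgccccgg
Mgst1, chr6:138140461-138140489, minus strand: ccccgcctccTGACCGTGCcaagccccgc
Sod1, chr16:90220696-90220724, minus strand: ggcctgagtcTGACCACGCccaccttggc
Prdx1, chr4:116685456-116685484, minus strand: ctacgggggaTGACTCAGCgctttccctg
Gsta3, chr1:21240454-21240482, plus strand: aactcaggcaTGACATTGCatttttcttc
The match lay 92 bases before the start in Txnrd1, 134 in Gclm, 240 in Nfe2l2 and 56 in both Mgst1 and Sod1. That of Prdx1 also holds TGACTCA, the sequence bound by AP-1 factors. The match of Srxn1 lay after its start and is not printed.

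None of the antioxidant genes passed the test between Dicer knockout and control preadipocytes, and as a group they lay on neither side of 0. The median log2 difference over the 29 tested genes, each by its brightest tested probe set, was 0.00405, against -0.00196 over all 13256 tested genes. Of the 29, 15 (51.7%) were above 0, as were 49.6% of all tested genes. Of the 53 probe sets, 0 were called at a limma adjusted p under 0.05, where the background was 1 of 27022 (0.0037%), and the smallest adjusted p was 0.999. At an unadjusted p under 0.05, 1 of the 53 passed, against a background of 3.77%. With same-numbered samples paired in the model, 0 of the 53 were called at an adjusted p under 0.05, against 13 of 27022 (0.0481%), with a smallest adjusted p of 0.154. Unadjusted, 3 of the 53 passed in that paired fit, against a background of 9.14%. Counted by gene, 0 of the 29 were called in either fit, against 0 and 0.0754% of tested genes. In 0 of the 53 did all knockout arrays lie on the same side of all control arrays, which 2.46% of tested probe sets did, nor in any of the 29 genes, against 2.52% of tested genes.

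**Figure D1:**
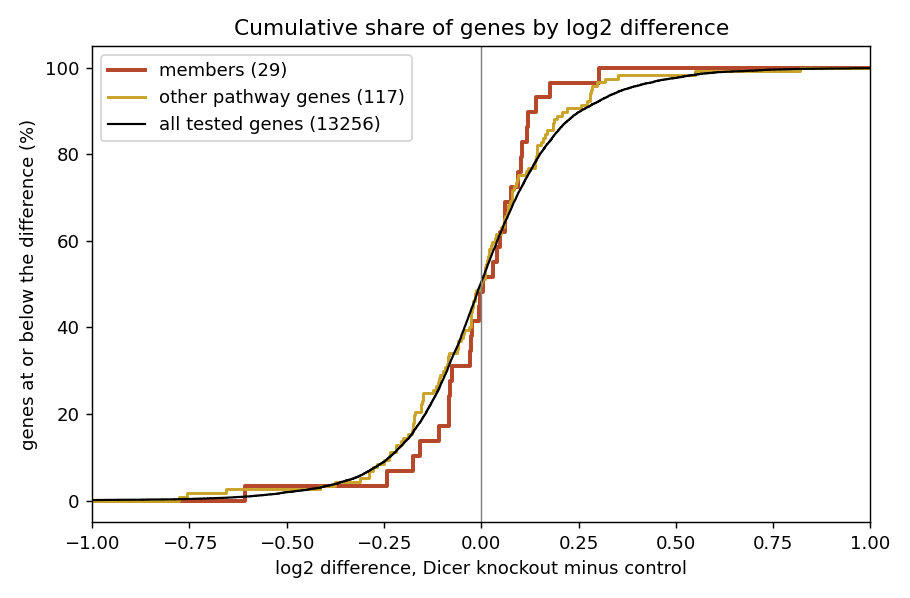
Cumulative share of genes (y axis, percent) at or below a log2 difference (x axis, Dicer knockout minus control), for the 29 tested antioxidant genes, 117 other pathway genes and all 13256 tested genes. All 3 curves cross the middle near 0, and 3 of the 29 genes lie beyond 0.2 in either direction.

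The intervals of the differences show how large a change these arrays would allow. For 27 of the 29 genes the 95% interval of the unpaired fit lay within a 2-fold change in either direction, and for 23 it lay within 1.5-fold. The exceptions at 2-fold were Gsta4 and Sod3. Over all 13256 tested genes, 90.8% of the intervals lay within 2-fold, and 8081 lay within 1.5-fold. The median size of the difference, whatever its sign, was 0.0820 on the log2 scale for these genes and 0.116 for all tested genes, and 10.3% of these genes against 27.4% of all differed by more than 0.2. The median SE was smaller for these genes as well, at 0.145 against 0.173, and its part in this was not tested. Signals of different probe sets are not on a common scale, so levels are compared below only within a probe set, in arbitrary units of array signal.

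Neither regulator passed the test, and the groups overlapped for both. Nfe2l2, which encodes NRF2, read 8404, 9836, 9698 and 12798 on knockout arrays 1 to 4 and 9338, 9340.3, 8696 and 14629.8 on control arrays 1 to 4. In both groups array 4 was the highest, and the other arrays of the groups overlapped. The log2 difference was -0.03 (SE 0.17, 95% interval -0.40 to 0.35). Keap1, the adaptor that presents NRF2 for ubiquitination, read 4668, 5222, 4719 and 5192 in knockout samples and 4711, 5526, 3895 and 4231 in control samples. The control range enclosed the knockout range. Its log2 difference was 0.12 (SE 0.13, 95% interval -0.16 to 0.39), with 2 of 4 pairs higher.

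The classical NRF2 targets, those most used as a readout of the pathway, also gave overlapping values. Nqo1, a quinone reductase, read 1694, 1982, 1812 and 2165 in knockout samples and 1419, 1818, 1976 and 1965 in control samples. Its log2 difference was 0.09 (SE 0.15, 95% interval -0.22 to 0.41), so a 2-fold rise lay outside the interval. Hmox1, heme oxygenase, read 6259, 8404, 6020.5 and 8220.1 in knockout samples and 5449.5, 7417, 6650.2 and 8144 in control samples. Arrays 2 and 4 were above arrays 1 and 3 in each group, and the difference between groups was 0.06 (SE 0.15) on the log2 scale. Srxn1, sulfiredoxin, which repairs overoxidised peroxiredoxins, read 1979.8, 2733, 2386 and 3009.5 in knockout samples and 1783, 2322, 2567 and 2946 in control samples. Its log2 difference was 0.08 (SE 0.18), and array 1 was the lowest and array 4 the highest in each group.

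Srxn1 was the gene whose probe sets differed most among themselves. It had 4 tested probe sets with log2 differences of -0.53 to 0.41. The probe set with the highest difference read 769, 978, 866 and 1045 in knockout samples and 409.7, 593, 837 and 939.8 in control samples. It was higher in 4 of 4 pairs, with a difference of 0.41 (SE 0.23, paired SE 0.18, limma paired adjusted p = 0.519). The probe set with the lowest difference read 439, 647, 407 and 99 in knockout samples and 289, 470.3, 1062 and 517 in control samples. It differed by -0.53 (SE 0.43), with 2 pairs higher and 2 lower, so that neither probe set was called and they disagreed in sign.

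The thioredoxin system reduces disulfides with NADPH. Txnrd1, thioredoxin reductase, read 5938, 6208, 5252 and 6566 in knockout samples and 6804, 5244, 6975 and 6392 in control samples. The ranges overlapped, and the log2 difference was -0.08 (SE 0.12, 95% interval -0.35 to 0.19). Txn1, thioredoxin itself, read 55696, 57176, 63143 and 77683 in knockout samples and 51234, 57958, 64700.3 and 74672 in control samples. The replicates took the same order in both groups, while the difference between groups was 0.03 (SE 0.13).

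**Figure D2:**
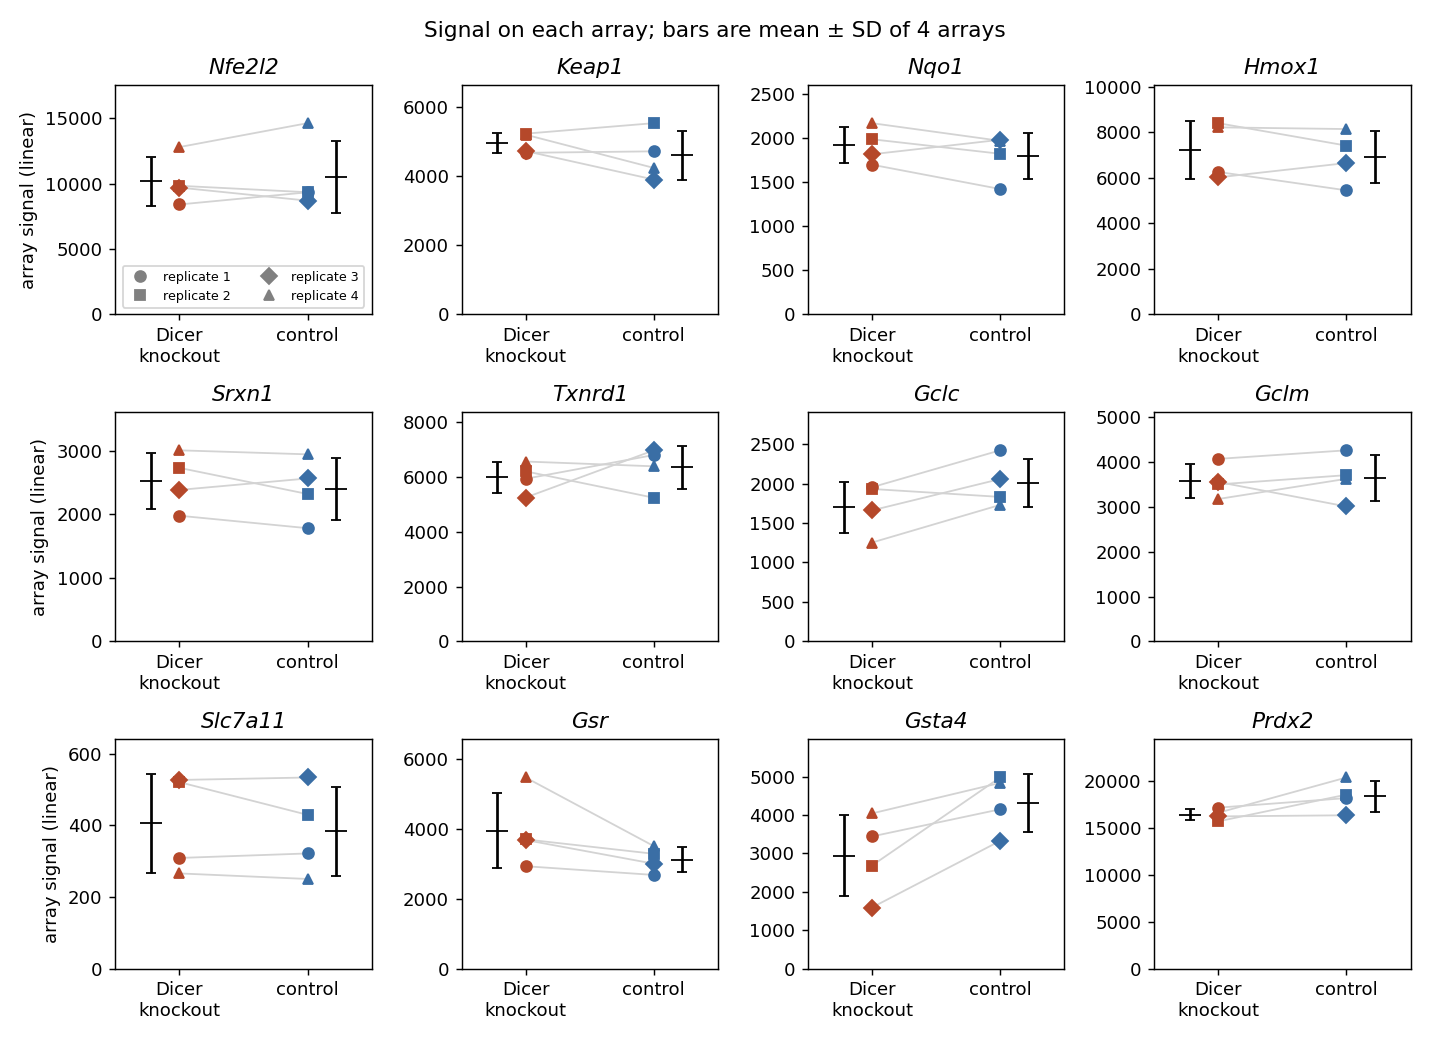
Array signal (linear, y axes from 0) of 12 genes in Dicer knockout and control samples, with 1 point per array, different symbols for replicates 1 to 4, grey lines joining same-numbered samples and bars for the mean ± SD of 4 arrays. Most lines run flat or cross, whereas for Gsta4 and Prdx2 all 4 lines end higher at the control side and for Gsr all 4 end lower there.

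Among the genes of glutathione synthesis and recycling, none was called, and Gsr and Gclc had the largest differences. Gsr, glutathione reductase, which returns oxidised glutathione to its reduced form, read 2925, 3692, 3674 and 5461 in knockout samples and 2676, 3281, 2997 and 3499.6 in control samples. It averaged 3938 ± 1076 in knockout samples and 3113 ± 357 in control samples (SD, n = 4 each), and each knockout array was above its same-numbered control. The log2 difference was 0.30 (SE 0.17, paired SE 0.11, limma paired adjusted p = 0.396). Without knockout array 4 it was 0.136, and the dimmer Gsr probe set gave 0.04 (SE 0.24).

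Gclc and Gclm encode the catalytic and the modifier subunit of glutamate-cysteine ligase, the rate-limiting enzyme of glutathione synthesis. Gclc read 1952, 1931, 1659.5 and 1252 in knockout samples and 2420.2, 1830.4, 2056 and 1729 in control samples. It was lower in 3 of 4 pairs, with a log2 difference of -0.24 (SE 0.17, 95% interval -0.61 to 0.13), and without knockout array 4 this was -0.109. A second probe set of the gene gave -0.17 (SE 0.19). Gclm read 4070.3, 3501, 3555 and 3175 in knockout samples and 4261, 3708, 3009 and 3626 in control samples, with a difference of -0.02 (SE 0.13). The ranges of both subunits thus overlapped between the groups.

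Slc7a11, the cystine importer that supplies cysteine for glutathione, was measured by 2 dim probe sets. The brighter read 309, 521, 527 and 266 in knockout samples and 322, 429.5, 534 and 250.4 in control samples. On this probe set arrays 2 and 3 were high and arrays 1 and 4 low in both groups, and the log2 difference was 0.06 (SE 0.28, 95% interval -0.55 to 0.67). The second tested probe set of Slc7a11 read 379, 217, 275 and 347 in knockout samples and 208, 265, 255 and 146 in control samples. It did not have that array pattern, was higher in 3 of 4 pairs and differed by 0.37 (SE 0.27), and it was not called.

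The glutathione transferases, which join glutathione to electrophiles, held the largest difference of all the genes described here. Gsta4, the alpha-class enzyme with high activity towards the lipid peroxidation product 4-hydroxynonenal, read 3442, 2683, 1591 and 4042 in knockout samples and 4149.8, 4979, 3327 and 4837 in control samples. It averaged 2940 ± 1057 in knockout samples and 4323 ± 756 in control samples (SD, n = 4 each). Each knockout array was below its same-numbered control, by -0.26, -0.87, -1.03 and -0.25 on the log2 scale, while the highest knockout arrays lay above the lowest control array. The fitted log2 difference was -0.61 (SE 0.24, 95% interval -1.13 to -0.08, a fold of 0.657), with an unadjusted p of 0.0279 and an adjusted p of 0.999 by limma. An exact two-sided permutation of the arrays gave p = 0.114, where the smallest possible is 0.0286. In the paired fit the SE was 0.14 and the adjusted p 0.154, so Gsta4 was not called there either. Without knockout array 3 the unpaired difference was -0.347.

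The other transferases differed less. Gstm1, a mu-class enzyme, read 5799, 5387, 3888 and 4469 in knockout samples and 5994, 5149, 4597 and 6273 in control samples, a log2 difference of -0.18 (SE 0.15). Its 4 tested probe sets lay between -0.18 and 0.02. The brightest carries the suffix that Affymetrix gives to probes shared with other transcripts, so RNA of related mu-class genes may bind it. The brightest tested probe sets of Srxn1, Gclc and Sod1 also carry a suffix for probes shared among transcripts. Gstm2 was lower in 4 of 4 pairs, at 8446, 10402, 8968 and 11180.5 in knockout samples and 8669, 11087, 8975 and 12837 in control samples. Here too the spread among replicates was wider than the difference of -0.08 (SE 0.14). Gstp1, the pi-class enzyme, read 27886, 32209, 26033 and 31893 in knockout samples and 31113, 29952, 28398 and 34826 in control samples, a difference of -0.08 (SE 0.10).

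Gstt1, a theta-class enzyme, showed how closely same-numbered samples could track each other. It read 1014, 1293, 1002 and 1886 in knockout samples and 906, 1168, 914 and 1791 in control samples. Each knockout array was slightly above its control, by 0.07 to 0.15, while array 4 stood far above arrays 1 and 3 in both groups. The log2 difference was 0.12 (SE 0.24, paired SE 0.13, limma paired adjusted p = 0.844). The microsomal enzymes Mgst1 and Mgst3, which sit in membranes and also reduce lipid peroxides, had differences of -0.08 (SE 0.17) and 0.14 (SE 0.19). Mgst3 read 8846, 6188, 6942 and 5651 in knockout samples and 8984, 6326, 4721 and 5398 in control samples, so that array 1 was the highest in each group. Gsta3 was at or near the pseudocount of 73.1 on its brighter probe set, at 9.30 to 115 in knockout samples and 11.1 to 117 in control samples, and its level could not be compared.

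The glutathione peroxidases reduce hydrogen peroxide and lipid peroxides at the expense of glutathione, and none was called. Gpx4, the enzyme that reduces lipid peroxides in membranes and protects from ferroptosis, read 25599, 29989.5, 33299 and 36251 in knockout samples and 29340.0, 34529, 31609.8 and 39241 in control samples. It was lower in 3 of 4 pairs, with a log2 difference of -0.11 (SE 0.13). Gpx1, the main cytosolic enzyme, differed by 0.04 (SE 0.13), with signals of 24214 to 27314 in knockout samples, inside the range of 19288 to 30209 in control samples. The secreted enzyme Gpx3 differed by 0.11 (SE 0.21). Gpx2, known from the gut epithelium, read 11.3 to 90.1 in knockout samples and 12.3 to 63.4 in control samples, around the pseudocount.

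Catalase and the superoxide dismutases remove hydrogen peroxide and superoxide, and none of them was called. Cat differed by -0.00434 (SE 0.13) by its brighter and by 0.19 (SE 0.12) by its dimmer tested probe set. Sod2, the mitochondrial enzyme, read 5906, 7069.5, 6122 and 6816 in knockout samples and 5976, 7029, 6018 and 6812 in control samples. These same-numbered values differed by no more than 0.0242 on the log2 scale in any pair, and the 95% interval of the difference ran from -0.24 to 0.25. Sod1, the cytosolic enzyme, differed by 0.05 (SE 0.10), at 37632 to 41482 in knockout samples against 33838 to 44996 in control samples. Its next brightest probe set averaged 35597 in knockout and 39118 in control samples, and gave -0.13 (SE 0.11), lower in 3 of 4 pairs. Of the 4 tested Sod1 probe sets, 2 were above and 2 below 0. Sod3, the secreted enzyme, was dim and unsteady, at 523, 539.9, 99.9 and 332 in knockout samples and 979, 199, 261 and 90.5 in control samples. Its interval, from -0.998 to 1.35, allows no statement on its direction.

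Of the peroxiredoxins, which reduce peroxides with electrons from thioredoxin, 2 were measured. Prdx2, a cytosolic enzyme, read 17151, 15691, 16220.1 and 16604 in knockout samples and 18173, 18543, 16340.2 and 20367 in control samples. It was lower in 4 of 4 pairs, and the highest knockout array lay above only the lowest control array. The log2 difference was -0.16 (SE 0.10, 95% interval -0.37 to 0.05, paired SE 0.08, limma paired adjusted p = 0.582). The dimmer Prdx2 probe set gave -0.06 (SE 0.14). Prdx3, the mitochondrial enzyme, differed by -0.01 (SE 0.11), with 4625 to 5366 in knockout samples and 4715 to 5234 in control samples.

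Fth1, the heavy chain of the iron store ferritin, read 123790.0, 138942, 141979 and 160969 in knockout samples and 112674, 142330.0, 147589 and 179166 in control samples. The order of the replicates was the same in both groups, and the log2 difference was -0.03 (SE 0.13). Taldo1, transaldolase of the pentose phosphate pathway, which feeds NADPH production, read 5114, 4855, 4479.5 and 5019 in knockout samples and 3393, 4972, 4514 and 5500.2 in control samples. Only pair 1 was higher in the knockout, by 0.58, and the other pairs differed by -0.13 to -0.01. The fitted difference of 0.10 (SE 0.15) was -0.0343 without control array 1.

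**Figure D3:**
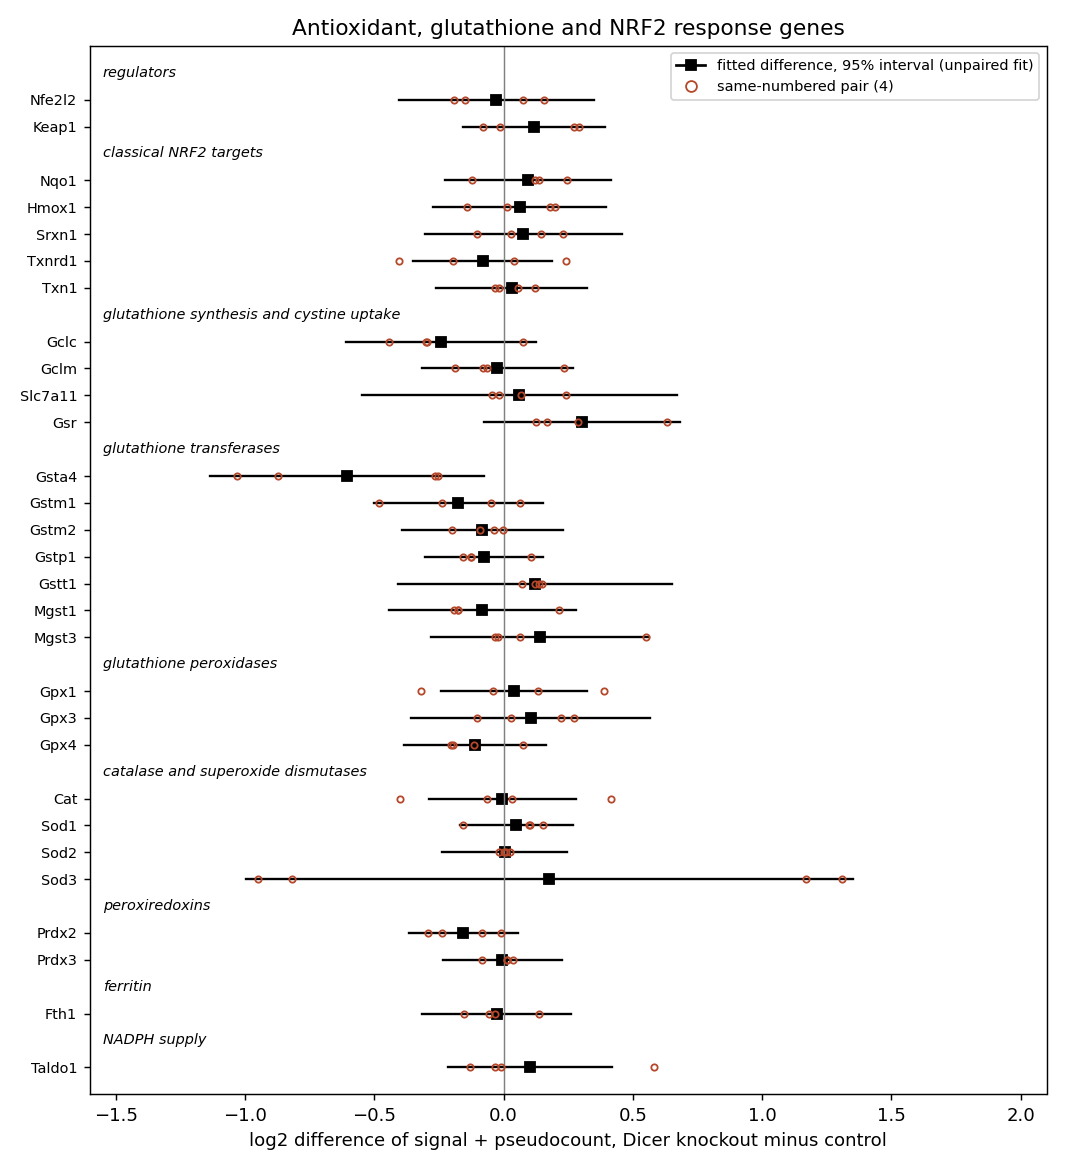
Log2 difference in signal plus pseudocount (x axis, Dicer knockout minus control) of the 29 tested genes, grouped by role, with the fitted difference as a square, its 95% interval from the unpaired fit as a line and the 4 same-numbered pairs as circles. The interval of Gsta4 alone lies wholly on one side of 0, from -1.13 to -0.08, and that of Sod3 is the widest.

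The spread over replicate numbers was set beside the difference between the groups. For 29 of the 29 genes the range of the 4 pair means was wider than the difference between the groups, as it was for 12296 of all 13256 tested genes, so that this count is near the background. A range of 4 means tends to exceed a difference between group means even without a replicate effect, so the count does not show one. The median range was 0.481 on the log2 scale, against 0.419 over all tested genes. The SE of the difference was smaller in the paired than in the unpaired fit for 29 of 29 genes, as it was for 90.3% of all tested genes, and its median was 0.1005 against 0.145. The median of the 29 genes, each taken relative to its own mean over the arrays, was -0.115, 0.0678, -0.0263 and 0.0963 on knockout arrays 1 to 4 and -0.109, 0.00367, -0.0713 and 0.111 on control arrays 1 to 4. Arrays 2 and 4 of both groups were thus above their mean and arrays 1 and 3 below it, while the same median over all tested genes stayed between -0.0458 and 0.0300. The even-numbered arrays are also those with the higher 18S ribosomal RNA 5′ signal, and its part in these levels was not tested. Taken per pair, the median difference of the 29 genes was -0.0468, 0.0643, -0.0106 and -0.0429 for pairs 1 to 4.

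**Figure D4:**
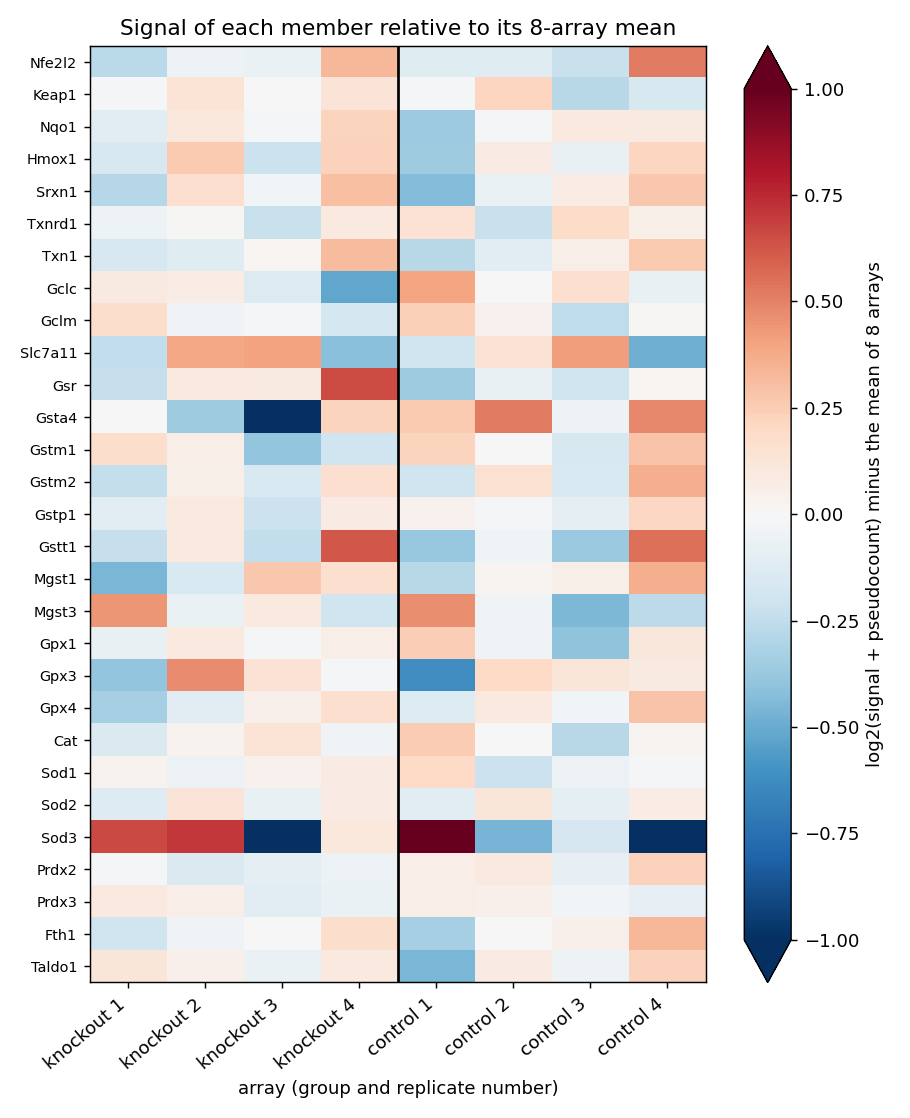
Signal of the 29 tested genes on the 8 arrays (columns, Dicer knockout left and control right of the line), as log2(signal + pseudocount) minus the gene's mean over the arrays (colour). Nfe2l2, Srxn1, Txn1, Gstt1 and Fth1 are above their mean on array 4 of both groups and below it on array 1 of both groups, and Gsta4 is below its mean on knockout arrays 2 and 3.

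Few of the genes had the same sign in every pair. Gsr and Gstt1 were higher in 4 of 4 pairs, which is 6.90% of the 29, against a background of 8.64% of tested genes. Gsta4, Gstm2 and Prdx2 were lower in 4 of 4 pairs, which is 10.3%, against 9.44%. At an unadjusted paired p under 0.05, Gsr passed as higher and Gsta4 as lower, 6.90% of the 29 against 10.3% of tested genes. The tested genes with the core element were Nfe2l2, Srxn1, Gclm, Mgst1, Txnrd1 and Sod1. By their brightest tested probe sets these 6 had log2 differences between -0.08 and 0.08. All tested probe sets ran from -0.53 to 0.41 for Srxn1 and from -0.13 to 0.30 for Sod1. Gsta4, Gsr and Gclc, which had the largest differences of the 29, had no promoter window, so they could not be counted with or without the element.

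Further genes of the same systems were taken from a list of 130, covering glutathione turnover, other transferases, thioredoxin, NADPH, heme and iron, detoxification, regulators of NRF2 and other redox proteins. Of these, 117 were tested, 0 were called in either the unpaired or the paired fit, and their median log2 difference was 0.000371, with 59 above 0. At an unadjusted p under 0.05 in the unpaired fit 1 was higher and 5 were lower, 5.13% in all, against a background of 3.93% of tested genes. In the paired fit the counts were 6 higher and 13 lower, 16.2% in all, against 10.3%. By system, the genes above 0 were 6 of 19 for glutathione turnover, 8 of 13 for transferases, 12 of 16 for thioredoxin and 7 of 10 for NADPH. They were 5 of 9 for heme and iron, 8 of 19 for detoxification, 4 of 15 for regulators and 9 of 16 for other redox proteins, where 49.6% of all tested genes were above 0.

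The 5 of these genes with the smallest unadjusted p in the unpaired fit were all lower in 4 of 4 pairs, and none was called. They were picked for small p in these same data, which favours a shared sign over the pairs. Of all 117, 14.5% were lower and 7.69% higher in 4 of 4 pairs, against 9.44% and 8.64% of all tested genes. Gsta2, an alpha-class transferase, read 214, 189, 108 and 272 in knockout samples and 262, 418, 499 and 356 in control samples, a log2 difference of -0.78 (SE 0.29, limma paired adjusted p = 0.470). It is of the same class as Gsta4, and in both the most negative of the 4 pair differences was that of pair 3. A link between them was not tested. Ppargc1a, a coactivator of mitochondrial and antioxidant genes, read 965, 504, 643 and 403 in knockout samples and 1088, 1263, 1524 and 600.3 in control samples. Its difference was -0.76 (SE 0.29, limma paired adjusted p = 0.227), and its other 4 tested probe sets were below 0 as well.

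The other genes of that group of 5 act in separate reactions. Txnrd3, a thioredoxin reductase that also handles glutathione, read 1226, 934, 1049 and 773 in knockout samples and 1502, 1405, 1351 and 1106 in control samples, a difference of -0.41 (SE 0.17, limma paired adjusted p = 0.351). Only knockout array 1 exceeded any control array. Cyba, the p22phox subunit of NADPH oxidases, which make superoxide, read 7411, 5383, 5538 and 4643 in knockout samples and 8222, 8021, 7874 and 5689 in control samples, a difference of -0.38 (SE 0.16, limma paired adjusted p = 0.187). Control array 4 was the only control array below the highest knockout array. Oplah, the enzyme that turns oxoproline back into glutamate for glutathione synthesis, read 454, 249, 388 and 162 in knockout samples and 736, 459, 484 and 399 in control samples, a difference of -0.65 (SE 0.29, limma paired adjusted p = 0.391).

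Probe sets of a gene did not always point the same way. Of the 29 genes, 16 had more than 1 tested probe set, and in 6 of them, Srxn1, Gstm1, Cat, Sod1, Sod2 and Fth1, the signs were mixed. Apart from Srxn1, none of these 6 genes had a probe set with an unadjusted p under 0.05 in either fit.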

How the data were processed

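Total RNA of 8 samples was measured on Affymetrix arrays. Each probe set has 1 deposited intensity per array on a linear scale, made with GCOS 1.3 and MAS5 per the submitters' processing notes; their 2% trimmed mean was 1500 on every array, so they had been scaled before deposit. Further normalization and the genome build are not given in the sources used here. No detection calls were used.

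Values were taken as log2(signal + 73.1), the 20th percentile of all values, which understates changes of dim probe sets. Of the probe sets, 64 array controls were dropped, and of the rest the upper 60% by mean were tested. Knockout and control were compared with limma 3.58.1 in R 4.3.3 (lmFit, eBayes with trend, two-sided, Benjamini-Hochberg over all tested probe sets, threshold 0.05), checked on simulated data. Python 3.11.15 with matplotlib 3.10.9 drew the figures. Platform annotation gave 1 symbol for 34945 probe sets, several for 932 and none for 9160.

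Over all tested probe sets, deviations from group means correlated at 0.342, 0.189, 0.199 and 0.373 between same-numbered knockout and control arrays. Between others they correlated at -0.347 to 0.149. Same-numbered samples were therefore treated as pairs in a further fit, although the meaning of the numbers is not stated. Over the 29 tested genes described here the same-numbered values were 0.782, -0.088, 0.318 and 0.586, against -0.607 to 0.374 between others, so pair 2 did not correlate. The fit without pairing came first.

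The members and lists were chosen with earlier results of these data known. All 37 members are named, and array values and statistics are given for 9 fixed by role and for those with the smallest p (8 unpaired, 6 paired), and, beyond that rule, for some others. Of the other pathway genes, those called or with the 5 smallest p were named. Alternatives were another or no pseudocount, other filters, median centring, quantile normalization, no trend, array weights, the replicate block and leaving out arrays or pairs.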

Additional observations from a re-analysis of the deposited data

Results flagged for a closer look

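In 3 of 68 groups of 4 arrays examined, for the 29 tested genes and the 5 other pathway genes named, 1 array stood apart from the rest by Dixon's test on the log2 scale. Chance flags about 1 in 20 groups. Nfe2l2 read 14629.8 on control array 4, against 8695.7 to 9340.3 on the other control arrays; knockout array 4 was also the highest of its group. Gpx3 read 1678.7 on control array 1, against 2789.9 to 3006.4 on the other control arrays, and was lowest on array 1 of the knockout too. Cyba read 5688.8 on control array 4, against 7873.9 to 8222.3 on the others, and was again lowest on knockout array 4.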

How the results depend on the processing

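Of the antioxidant probe sets and of the other pathway genes, 0 were called in any of the 21 alternative fits. The median log2 difference of the 29 genes stayed between -0.0446 and 0.0442 in all alternatives, each within 1 SD between the pairs (0.0515) of the reported 0.00405. The replicate block changed no call among the genes named, and raised the count over all tested probe sets to 13 from 1. That count was 0 with no filter, with median centring or without the trend, and 0 to 80 when arrays or pairs were left out. It was 2 without control array 1, and 80 in the paired fit without pair 1. Among 22 named genes no alternative changed a call, and 14 kept their sign in every tested fit. In the other 8 the sign turned when single arrays or pairs were left out. With single arrays left out, and then with single pairs left out of the paired fit, their log2 differences ran from -0.143 to 0.141 and from -0.0895 to 0.0265 for Nfe2l2 (0.0127 without pair 1), from -0.00935 to 0.149 and from 0.0449 to 0.1665 for Nqo1, from -0.0462 to 0.145 and from 0.0167 to 0.130 for Hmox1, from -0.0560 to 0.184 and from 0.0243 to 0.135 for Srxn1, from -0.168 to -0.0191 and from -0.187 to 0.0281 for Txnrd1, from -0.112 to 0.0520 and from -0.111 to 0.0297 for Gclm, from -0.0913 to 0.212 and from 0.00141 to 0.0974 for Slc7a11, and from -0.0343 to 0.194 and from -0.05835 to 0.179 for Taldo1. The cause was not tested. Low signal limits what can be said of Sod3, Slc7a11, Gsta3 and Gpx2, and 4 arrays a group limit the rest.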
